A study of Homo sapiens and Mus musculus with 19 samples.

Results

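The 10 genes described here encode the RNA 5-methylcytosine (m5C) methyltransferases NOP2, NSUN2, NSUN3, NSUN4, NSUN5, NSUN6, NSUN7 and TRDMT1, and the m5C-binding proteins ALYREF and YBX1. They were chosen by name out of 58721 genes in the human tables. Their mouse orthologues of the same names came out of 54446 genes in the mouse tables. No measured value served as a rule, but earlier results of these data were known when the choice was made. Chromatin-associated RNA (caRNA), the RNA left in the chromatin pellet after the cytoplasm and nucleoplasm have been washed away, was sequenced after depletion of ribosomal RNA. Mouse embryonic stem cells (mES cells) were transfected by lipofection with a control siRNA (siControl) or with siRNA against Nsun2 (siNsun2), with 3 libraries per group. Both mES groups were grown in serum with LIF, CHIR99021 and PD0325901, and were passaged on gelatin to remove feeder cells. K562, an established human leukaemia cell line, was either TET2 wild type (TET2 WT) or TET2 knockout (TET2 KO), and either form carried a control hairpin (shControl) or a hairpin against MBD6 (shMBD6), with 3 libraries in each of the 4 groups. All 4 K562 groups had been transduced with lentivirus and were kept under puromycin, and values for them stand in the order TET2 WT with shControl, TET2 WT with shMBD6, TET2 KO with shControl and TET2 KO with shMBD6. Each genotype was a single K562 line, so that the TET2 deletion and any other difference between those lines cannot be told apart.

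These enzymes place a methyl group on carbon 5 of cytosine in RNA, and most of the known sites lie in ribosomal RNA and transfer RNA. TET2 can oxidise m5C, and reader proteins bind the methylated base and pass it on to export, stability or chromatin pathways. The data give the amount of each gene's own RNA on chromatin, which is a mixture of nascent and retained transcripts. They hold no measure of m5C itself, of protein or of enzyme activity, and in bulk samples fewer cells of a type and less RNA per cell cannot be told apart.

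Gene counts per library were 58078323 to 66832780 in mES cells and 52158403 to 102070223 in K562 cells. The paper describes its genome-wide data as combining biological replicates, but the labels do not say whether these came from separate cultures. The p-values therefore measure the spread between these libraries, and how much of it is technical is not known. Levels are given as CPM, the read count of a gene scaled to a common library size by TMM, and a gene was called higher or lower at an adjusted p under 0.05 in the edgeR quasi-likelihood test, with Benjamini-Hochberg adjustment over all genes tested. Changes are log2 values with their standard error (SE). Where groups are said not to overlap, this describes the libraries of that gene. The share of all genes without overlap is not given here, so lack of overlap does not set a member apart. The embryonic stem cell marker list was detected, with 9 of 10 genes above 1 CPM, and its summed level was 2009 to 2048 CPM in siControl and 1547 to 1587 CPM in siNsun2. Among those markers Sox2 was listed at 0, which was not read as absence. The feeder list summed to 48.8 to 50.5 CPM over both groups, with 6 of 9 genes above 1 CPM. A list of early differentiation genes summed to 15.8 to 16.7 CPM in siControl and 12.3 to 12.8 CPM in siNsun2, with 3 of 7 above 1 CPM. K562 was labelled as a lymphoblast cell. The erythroid list summed to 1132 to 1169, 682 to 704, 573 to 585 and 805 to 822 CPM in the 4 groups, with 9 of 12 genes above 1 CPM and HBG2 and HBE1 at 0. Overlap with other genes, which can take reads from a gene, was looked up for the members and not for these markers. The lymphoid list did not exceed 7.69 CPM, nor the monocyte and macrophage list 7.48 CPM, in any library. Reads outside genes made up 19.6% to 20.2% of the records in siControl and 28.9% to 29.9% in siNsun2. They made up 13.1% to 13.3%, 15.6% to 16.0%, 15.0% and 15.0% to 15.2% in the 4 K562 groups. The part of these library differences in the results that follow was not tested.

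The caRNA of the hairpin target did not follow its label in both genotypes. MBD6, which encodes a methyl-binding-domain protein, was at 43.3, 42.7 and 38.6 CPM in TET2 WT shControl. It was at 31.0, 25.7 and 27.2 CPM in TET2 WT shMBD6, a fall of log2 -0.57 ± 0.08 SE (edgeR, adjusted p = 1.8e-07). ALYREF, which was not targeted, changed by -0.57 ± 0.11 in that comparison, where the median of all genes was 0.10. The part of the hairpin in the MBD6 fall was not tested. In TET2 KO cells MBD6 was at 30.6, 30.8 and 29.4 CPM with shControl, which was lower than in TET2 WT shControl (-0.46 ± 0.08, edgeR, adjusted p = 6.5e-06). Libraries labelled shMBD6 had 30.6, 38.3 and 34.2 CPM, which is a difference of 0.19 ± 0.08 (edgeR, adjusted p = 0.057). With DESeq2 size factors in place of TMM, MBD6 was called higher under that label (0.20, edgeR, adjusted p = 0.040). The hairpin libraries of TET2 KO cells are for that reason called by their label throughout. These values are caRNA and do not measure MBD6 mature mRNA or protein. For MBD6 knockdown in TET2 KO cells the paper reports slower proliferation and more ubiquitinated histone H2A. In K562 it also reports that MBD6 knockdown undid the raised caRNA expression seen with TET2 KO. The authors added spike-in RNA to their caRNA. Values here are relative to the other genes and do not show the total amount of caRNA. The caRNA of TET2 was at 121 ± 2.59, 122 ± 4.07, 129 ± 2.23 and 94.8 ± 5.28 CPM (SD, n = 3) in the 4 groups, so the knockout line did not have less of it than the wild-type line under the control hairpin. Where the deletion lies in the gene is not given in the sources used here.

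In both species YBX1 and NSUN2 stood among the 3 most abundant members detected and NSUN7 stood at the bottom. Levels were compared between genes per kilobase of annotated exon (CPM per kb). In TET2 WT shControl the order was NSUN6 at 49.1 ± 1.15 CPM per kb (SD, n = 3), YBX1 at 47.1 ± 2.11, NSUN2 at 21.4 ± 0.852, NSUN4 at 9.67 ± 0.294, ALYREF at 7.79 ± 0.581, NSUN3 at 4.54 ± 0.148, NSUN5 at 3.68 ± 0.429, TRDMT1 at 2.21 ± 0.0405 and NSUN7 at 0.108 ± 0.0103. NSUN6 and YBX1 overlapped in their libraries, and every other pair of neighbours in that order was separated. The order of the 10 genes was the same in the other 3 K562 groups. In mES siControl the order was Ybx1 at 93.5 ± 0.453 CPM per kb, Nop2 at 28.7 ± 0.730, Nsun2 at 22.6 ± 0.601, Nsun6 at 10.3 ± 0.540, Alyref at 6.12 ± 0.0869 and Nsun4 at 4.04 ± 0.267. Nsun5, Trdmt1 and Nsun3 followed at 2.91 ± 0.167, 2.91 ± 0.236 and 2.87 ± 0.10, and these 3 genes overlapped. Nsun7 was lowest at 0.299 ± 0.0184. Since caRNA holds intronic reads and the feature counted is not given in the sources used here, the same comparison was made per kilobase of the whole gene span, where YBX1 was first in each group and NSUN2 moved from place 3 to place 2 in K562 and to place 5 in mES cells. NSUN6, with a span of 113.7 kb of which 3.05% is exon, fell to place 6 on that scale in TET2 WT shControl, at 1.5 ± 0.0351 CPM per kb of span.

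**Figure D1:**
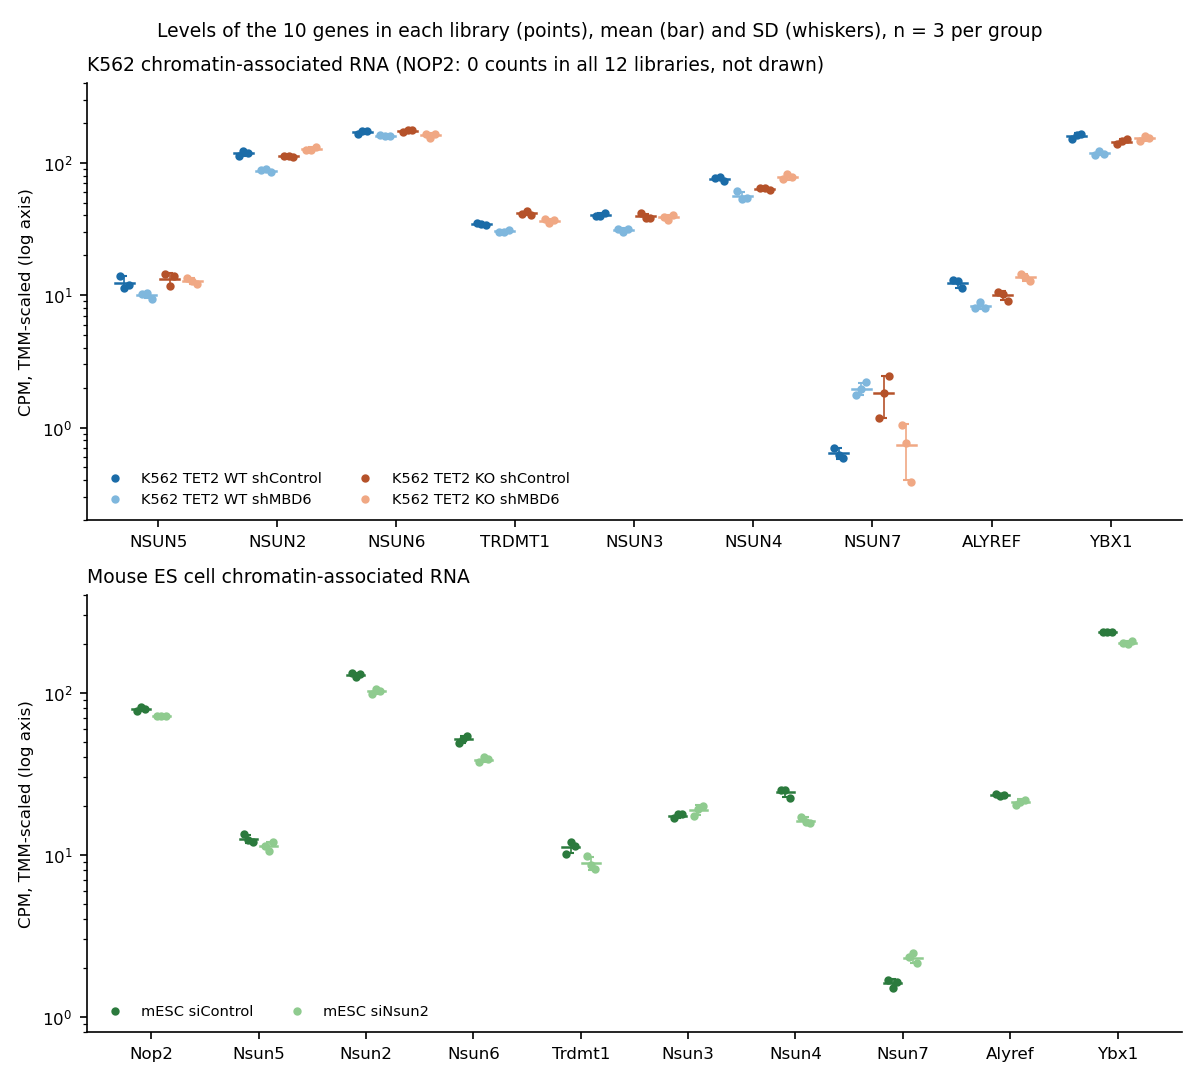
Levels of the members in CPM (log axis) in every library, with the group mean and SD, for K562 (upper panel, 4 groups) and mES cells (lower panel, 2 groups). NSUN7 lay between 0.39 and 2.45 CPM in K562, below every other member drawn, and NOP2 had 0 counts in K562 and was not drawn.

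NOP2, which methylates the large-subunit ribosomal RNA in the nucleolus, was listed at 0 counts in all 12 K562 libraries. A count of 0 allows up to 0.0294 to 0.0575 CPM per library (3 counts), but 99.8% of its span (chr12:6556863-6568691, minus strand, hg38) is also annotated to another protein-coding gene on the same strand, ENSG00000285238. That gene was at 0.622 to 1.64 CPM. Counters such as HTSeq by default set aside a read that falls in more than 1 gene, and whether that was so here is not given in the sources used. The value 0 was therefore not read as absence of NOP2 RNA, and no change was computed for it. The mouse gene has no overlap on its strand. Nop2 (chr6:125131909-125144753, plus strand, mm10) was at 77.7, 81.7 and 79.1 CPM in siControl and at 71.9, 72.0 and 71.5 CPM in siNsun2.

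NSUN7, for which RNA targets are less well established, lay below a measure of silent genes in K562 on the scale of gene span. Olfactory receptor genes, which these cells should not express, were used as a measure of background, per kb of span. NSUN7 was at 0.164, 0.44, 0.325 and 0.178 of that background in the 4 K562 groups, and in mES cells Nsun7 was at 1.52 and 1.46 times it. The remaining tested members lay from 6.03 times (Trdmt1 in siNsun2) to 513 times (Ybx1 in siControl) above it. The background itself differed between groups, at 0.0278 ± 0.00220 CPM per kb in siControl and 0.0414 ± 0.00241 in siNsun2, and at 0.0636, 0.0731, 0.0914 and 0.0677 CPM per kb in the 4 K562 groups. Per kb of exon NSUN7 was at 0.108, 0.334, 0.308 and 0.125 CPM in these groups. The level of olfactory receptor genes was not computed per kb of exon, so the comparison holds for span only.

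**Figure D2:**
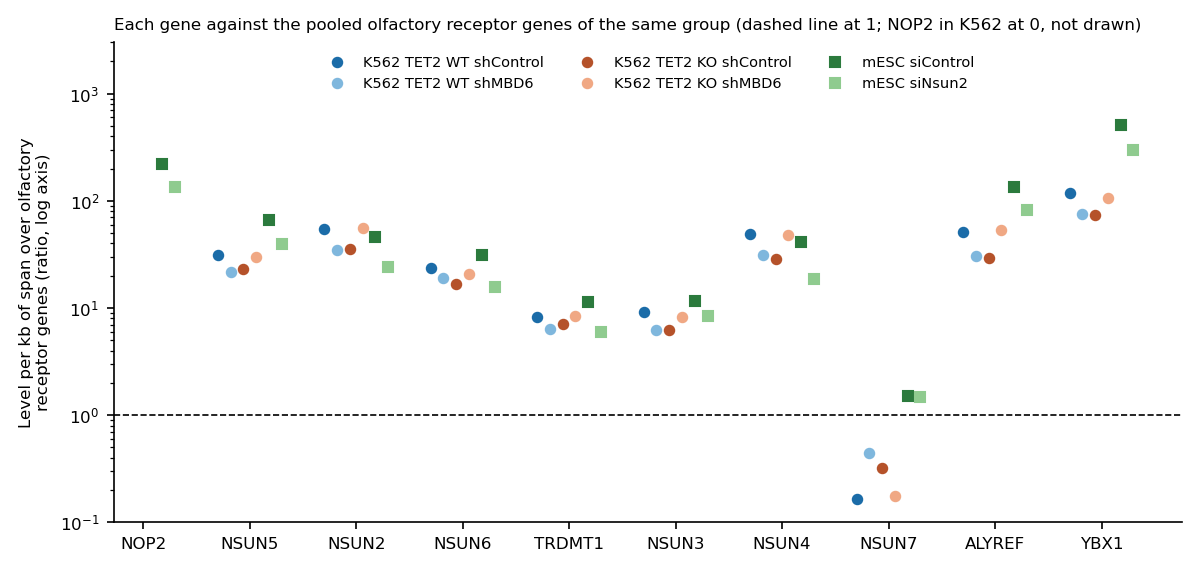
Level of each member per kb of span, divided by the pooled level of olfactory receptor genes in the same group (ratio, log axis), with K562 groups as circles and mES groups as squares. NSUN7 in K562 lies below the dashed line at 1, at 0.164 to 0.44.

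The knockdown in mES cells addressed what loss of Nsun2 does to caRNA, and the targeted gene was examined first. Nsun2, which methylates transfer RNAs and some other RNAs, was at 133, 126 and 130 CPM in the siControl libraries and at 98.8, 106 and 103 CPM in the siNsun2 libraries. All siNsun2 libraries lay below all siControl libraries, and the change was -0.34 ± 0.03 (SE, edgeR quasi-likelihood test, adjusted p = 2.8e-16). Nsun2 remained well above background in siNsun2, at 24.3 times the olfactory receptor level. These values are caRNA and do not measure Nsun2 mature mRNA or protein. After Nsun2 depletion the paper reports a decrease in caRNA m5C. Of the 10 members, 7 were called lower, where 24.3% of all 27603 genes tested were, and 1 was called higher, where 25.8% of all genes were. The median change was -0.19 over the 10 members and 0.14 over all genes. The Nsun2 span (chr13:69533746-69635780, plus strand, mm10) overlaps Tent4a and Srd5a1 on the opposite strand, and whether counting used strand is not given in the sources used here.

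The fall in Nsun2 was not the largest among the members. Nsun4, the mitochondrial ribosomal RNA methyltransferase, was at 25.1, 25.2 and 22.4 CPM in siControl and at 17.1, 15.8 and 15.6 CPM in siNsun2, with no overlap and a change of -0.58 ± 0.07 (edgeR, adjusted p = 1.1e-11). Nsun6, a transfer RNA methyltransferase that also acts on mRNAs, was at 49.0, 51.6 and 54.4 CPM against 37.2, 40.0 and 38.9 CPM, a change of -0.42 ± 0.05 (edgeR, adjusted p = 9.0e-13). Trdmt1, which methylates the anticodon loop of some transfer RNAs, was at 10.2, 11.9 and 11.4 CPM against 9.83, 8.65 and 8.22 CPM. Its groups were separated by little, and its change was -0.33 ± 0.10 (edgeR, adjusted p = 0.0038). Smaller falls were seen for the reader Ybx1, a cold-shock-domain protein, at -0.22 ± 0.03, for Nop2 at -0.15 ± 0.04 and for the export adaptor Alyref at -0.15 ± 0.06 (edgeR, adjusted p = 0.045). The Alyref call was lost in the edgeR test without any of the 6 libraries except siNsun2 replicate 3 (adjusted p from 0.055 to 0.15). Nsun5 (-0.16 ± 0.09) and Nsun3 (0.11 ± 0.07), the writers for large-subunit ribosomal RNA and for a mitochondrial transfer RNA, did not pass the test, although Nsun5 was called lower with DESeq2 size factors (-0.22).

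Most of these calls depended on how libraries were scaled. On the main scale 7128 of all genes were called higher and 6716 lower, with total gene counts 10248 and 2584, and with TMM on highly expressed genes 10993 and 2046. With total gene counts or with TMM on highly expressed genes, the median change of all genes was 0.32 and 0.34, and Nop2, Alyref and Nsun5 turned to small positive values (0.02 to 0.06) that were not called. Under both scalings Nsun2 (-0.16 and -0.13), Nsun4 (-0.40 and -0.37) and Nsun6 (-0.24 and -0.21) stayed lower, while Trdmt1 and Ybx1 were no longer called and Nsun3 was called higher. A measure that needs no scaling is the share of Nsun2 in the summed counts of the 10 members, which was 22.6%, 21.5% and 22.0% in siControl and 20.1%, 21.4% and 20.5% in siNsun2. The groups did not overlap, and the difference was -1.33 percentage points, with a two-sided exact permutation p = 0.1, the smallest that 3 libraries against 3 can give.

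**Figure D3:**
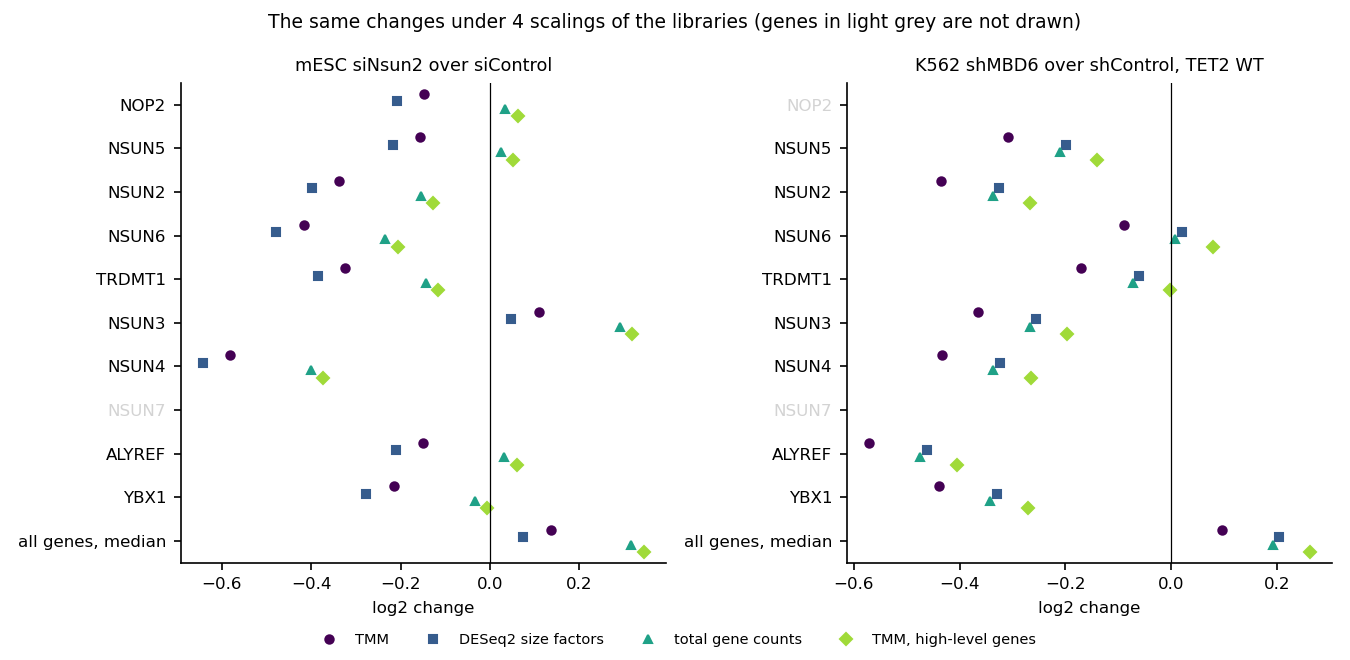
Log2 change of the members under 4 scalings of the libraries, for mES siNsun2 over siControl (left) and TET2 WT shMBD6 over shControl (right), with the median of all genes in the lowest row. Nsun2, Nsun4 and Nsun6 lie below 0 under each scaling in mES cells, and NSUN2, NSUN3, NSUN4, ALYREF and YBX1 do so in K562.

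Nsun7 was the member called higher in mES cells. It was at 1.69, 1.5 and 1.64 CPM in siControl and at 2.33, 2.47 and 2.13 CPM in siNsun2, which rests on 89 to 154 reads per library. The change was 0.52 ± 0.21 (edgeR, adjusted p = 0.033), and the call was lost in the edgeR test without siControl replicate 2 or 3 or siNsun2 replicate 1 or 2 (adjusted p from 0.062 to 0.10). It was also lost with DESeq2 size factors (0.46, adjusted p = 0.060), with no filter (0.50, adjusted p = 0.065) and with DESeq2 (0.44, adjusted p = 0.093). With total gene counts the call stayed and the change was larger (0.70, edgeR, adjusted p = 0.0043). Over all alternatives the change ran from 0.44 to 0.73. The rise went with the higher olfactory receptor level in siNsun2 given above, and its part in the result was not tested.

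In TET2 WT K562 cells nearly all tested members were lower with shMBD6, in a comparison that asks what loss of MBD6 does to caRNA. Of the 9 tested, 8 were called lower, against 24.7% of all 26023 genes, and 1 was called higher, against 17.7% of all genes. The median change was -0.36 over these 9 members and 0.10 over all genes. Under 6 other scalings, filters or tools, 5 members were called lower in place of 8, with NSUN2, NSUN3, NSUN4, ALYREF and YBX1 called lower each time.

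ALYREF, which joins the mRNA export machinery and binds m5C, had the largest fall among the members. Its levels were 13.0, 12.7 and 11.3 CPM in TET2 WT shControl and 8.02, 8.89 and 8.01 CPM in TET2 WT shMBD6, with no overlap and a change of -0.57 ± 0.11 (edgeR, adjusted p = 7.4e-05). The second reader, YBX1, was at 152, 162 and 166 CPM against 115, 123 and 117 CPM, a change of -0.44 ± 0.04 (edgeR, adjusted p = 6.7e-11). NSUN2 was at 113, 122 and 118 CPM with shControl and at 87.6, 89.1 and 84.5 CPM with shMBD6, a change of -0.43 ± 0.04 (edgeR, adjusted p = 5.0e-11). Both genes were separated between the groups without overlap.

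Among the mitochondrial writers, NSUN4 was at 76.9, 77.6 and 73.3 CPM against 60.8, 53.7 and 54.0 CPM, a change of -0.43 ± 0.05 (edgeR, adjusted p = 1.2e-08). NSUN3 was at 39.3, 39.6 and 41.7 CPM against 31.7, 30.1 and 31.8 CPM, a change of -0.36 ± 0.06 (edgeR, adjusted p = 8.6e-06). Neither gene overlapped between the groups. NSUN5 at -0.31 ± 0.11, TRDMT1 at -0.17 ± 0.06 and NSUN6 at -0.09 ± 0.03 were called lower on the main scale. NSUN5 and TRDMT1 lost the call under 6 alternatives, and NSUN6 turned positive under 5, reaching 0.08 and a call in the higher direction with TMM on highly expressed genes. The NSUN5 call also needed TET2 WT shControl replicate 1 and TET2 WT shMBD6 replicate 3 (-0.22 and -0.26 without them). Without TET2 WT shControl replicate 1, or TET2 WT shMBD6 replicate 1 or 2, TRDMT1 (-0.16) was not called. NSUN6 was not called without TET2 WT shControl replicate 2 or 3 or TET2 WT shMBD6 replicate 2 or 3 (-0.08 to -0.09). NSUN6 was at 166, 173 and 172 CPM in TET2 WT shControl and at 162, 160 and 158 CPM in TET2 WT shMBD6.

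**Figure D4:**
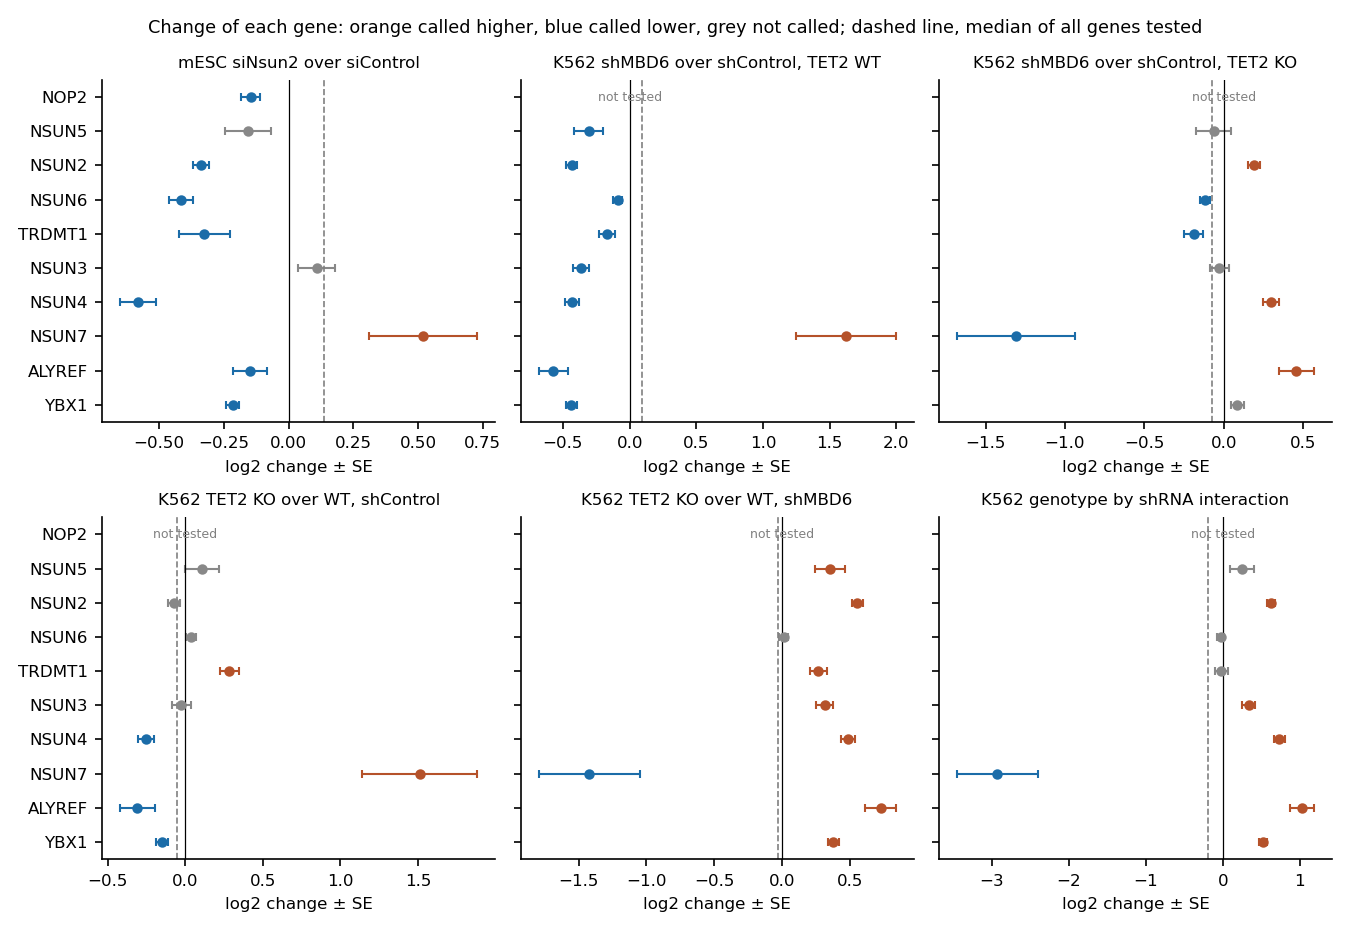
Log2 change and SE of each member in the 5 comparisons and in the interaction, coloured by call, with the median of all genes tested as a dashed line. ALYREF, NSUN2, NSUN4 and YBX1 lie left of 0 for shMBD6 in TET2 WT and right of 0 in the interaction, and NSUN7 lies on the opposite side each time.

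The comparison of TET2 KO with TET2 WT under shControl, which compares the genotypes, called fewer members. Of 9 tested, 3 were called lower, against 22.3% of all genes, and 2 were called higher, against 23.5%. The median change was -0.03 over the members and -0.05 over all genes. ALYREF fell from the 11.3 to 13.0 CPM given above to 10.5, 10.3 and 9.06 CPM, a change of -0.31 ± 0.11 (edgeR, adjusted p = 0.023). That call was lost in the edgeR test without TET2 WT shControl replicate 1 or 2, or without TET2 KO shControl replicate 3 (adjusted p from 0.077 to 0.12). NSUN4 was at 64.3, 64.7 and 62.4 CPM in TET2 KO shControl, below all TET2 WT shControl libraries, with a change of -0.25 ± 0.05 (edgeR, adjusted p = 9.2e-05). YBX1 changed by -0.15 ± 0.04 (edgeR, adjusted p = 0.0025).

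TRDMT1 rose in TET2 KO. It was at 34.9, 34.2 and 33.6 CPM in TET2 WT shControl and at 41.2, 43.4 and 40.4 CPM in TET2 KO shControl, without overlap, and the change was 0.28 ± 0.06 (edgeR, adjusted p = 0.00019). With total gene counts, which moved the median of all genes to -0.23, the TRDMT1 change was 0.11 and was not called. NSUN2 (-0.07 ± 0.04, edgeR adjusted p = 0.13), NSUN3 (-0.03 ± 0.06), NSUN5 (0.11 ± 0.11) and NSUN6 (0.04 ± 0.03) did not pass the test. NSUN2 was called lower under 6 alternatives and without TET2 WT shControl replicate 1 (-0.10), with values down to -0.25 for total gene counts. Under that scaling NSUN3 (-0.20) and NSUN6 (-0.14) were called lower too.

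In TET2 KO cells the libraries labelled shMBD6 differed from shControl in a direction opposite to that in TET2 WT for several members. Of 9 tested, 3 were called higher, against 15.7% of all genes, and 3 were called lower, against 20.6%. ALYREF was at 14.5, 13.8 and 12.8 CPM, above all TET2 KO shControl libraries, with a change of 0.46 ± 0.11 (edgeR, adjusted p = 0.0012). NSUN4 was at 75.0, 82.6 and 77.9 CPM, a change of 0.30 ± 0.05 (edgeR, adjusted p = 1.1e-05). NSUN2 was at 125, 125 and 132 CPM against 112, 113 and 111 CPM, a change of 0.19 ± 0.04 (edgeR, adjusted p = 0.00018). None of these 3 genes overlapped between the groups. TRDMT1 (-0.19 ± 0.06) and NSUN6 (-0.12 ± 0.03) were called lower, but under total gene counts TRDMT1 was at -0.06 and NSUN6 at 0.01, and neither was called. TRDMT1 also lost its call without TET2 KO shControl replicate 2 or TET2 KO shMBD6 replicate 2 (-0.16), and NSUN6 without the latter (-0.09). YBX1 (0.09 ± 0.04), NSUN3 (-0.03 ± 0.06) and NSUN5 (-0.06 ± 0.11) did not pass the test. YBX1 was called higher under 5 alternatives and without TET2 KO shMBD6 replicate 1 (0.12), with 0.21 for total gene counts and 0.08 with the replicate number as a block.

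Between the genotypes under the shMBD6 label, 7 of 9 members were called higher in TET2 KO, against 30.1% of all genes, and 1 was called lower, against 28.5%. The median change was 0.35 over the members and -0.03 over all genes. The changes were 0.72 ± 0.11 for ALYREF, 0.55 ± 0.04 for NSUN2, 0.48 ± 0.05 for NSUN4, 0.37 ± 0.04 for YBX1, 0.35 ± 0.11 for NSUN5, 0.31 ± 0.06 for NSUN3 and 0.27 ± 0.06 for TRDMT1. ALYREF, NSUN2, NSUN4 and YBX1 were called higher under every scaling, filter and tool tried. NSUN5 was not called under 4 alternatives, TRDMT1 under 2 and NSUN3 under 1. NSUN6 was level on the main scale (0.01 ± 0.03) and was called lower under 5 alternatives, at -0.09 to -0.21.

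The interaction asked whether the shMBD6 difference depended on genotype, as the shMBD6 change in TET2 KO minus that in TET2 WT. Of 9 members, 5 had a positive interaction, against 23.9% of all genes, and 1 had a negative one, against 25.5%. Values were 1.03 ± 0.16 for ALYREF, 0.73 ± 0.07 for NSUN4, 0.62 ± 0.06 for NSUN2, 0.52 ± 0.06 for YBX1 and 0.34 ± 0.09 for NSUN3, with a median of -0.19 over all genes. NSUN5 (0.24 ± 0.16), TRDMT1 (-0.02 ± 0.09) and NSUN6 (-0.03 ± 0.05) did not pass the test. The NSUN3 interaction (0.18) was not called with TMM on highly expressed genes, where that of NSUN6 (-0.19) was called negative. The 4 K562 comparisons share libraries in pairs, so that their values are not separate pieces of evidence.

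NSUN7 was called in each K562 comparison, at very low counts. It moved opposite to the other called members with shMBD6 in TET2 WT and between the genotypes under the shMBD6 label. Under shControl it was higher in TET2 KO together with TRDMT1, and under the shMBD6 label in TET2 KO it was lower together with NSUN6 and TRDMT1. In TET2 WT it was at 0.706, 0.623 and 0.587 CPM with shControl and at 1.76, 1.94 and 2.2 CPM with shMBD6. In TET2 KO it was at 1.18, 1.83 and 2.45 CPM with shControl and at 1.05, 0.77 and 0.39 CPM under the shMBD6 label. The pair of groups did not overlap in either genotype. These values rest on 30 to 186 reads per library. The change was 1.62 ± 0.37 for shMBD6 in TET2 WT (edgeR, adjusted p = 0.00056) and 1.51 ± 0.37 for TET2 KO under shControl (edgeR, adjusted p = 0.0011). It was -1.31 ± 0.37 for the shMBD6 label in TET2 KO (edgeR, adjusted p = 0.0056) and -1.42 ± 0.37 between genotypes under shMBD6 (edgeR, adjusted p = 0.0016), with an interaction of -2.93 ± 0.53. Without TET2 KO shControl replicate 3, the change in TET2 KO was -1.03 and was not called (edgeR, adjusted p = 0.065). Per kb of span all of these levels lay below the olfactory receptor background given above, and the gene shares 0.981% of its span with the pseudogene ARL4AP2 on the same strand.

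NSUN5, which methylates large-subunit ribosomal RNA, has a pair of unprocessed pseudogene copies on the same chromosome that had higher levels than NSUN5 itself. NSUN5 was at 9.36 to 14.4 CPM over the 12 K562 libraries, NSUN5P1 at 35.9 to 71.7 and NSUN5P2 at 25.3 to 56.8. Of 6237 windows of 75 bases along the NSUN5 span, 5.52% occur unchanged in a copy, so elsewhere such a window differs by at least 1 base. An exonic stretch of NSUN5 and of its copies, read from hg38, is shown because it makes visible how little separates them, with the base that differs in capitals. Both copies are 98.3% identical to NSUN5 over these 60 bases.
NSUN5, chr7:73308700-73308759, minus strand: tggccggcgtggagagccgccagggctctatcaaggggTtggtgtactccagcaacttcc
NSUN5P1, chr7:75410399-75410458, plus strand: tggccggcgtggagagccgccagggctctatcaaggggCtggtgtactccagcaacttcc
NSUN5P2, chr7:72954627-72954686, minus strand: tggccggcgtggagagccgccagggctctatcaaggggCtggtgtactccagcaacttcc

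With shMBD6 in TET2 WT, NSUN5P1 fell from 51.4 ± 3.53 to 36.9 ± 1.22 CPM (log2 -0.48 ± 0.06) and NSUN5P2 from 42.7 ± 3.96 to 28.1 ± 3.00 CPM (-0.60 ± 0.07). In TET2 KO both were higher in the libraries labelled shMBD6, by 0.47 ± 0.06 for NSUN5P1 and 0.39 ± 0.07 for NSUN5P2, where NSUN5 was at -0.06 ± 0.11 and was not called. Reads can be split between such copies, so the level of NSUN5 is uncertain. Processed copies of YBX1 did not exceed 1.02 CPM, and in mouse Alyref2 did not exceed 0.508 CPM.

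**Figure D5:**
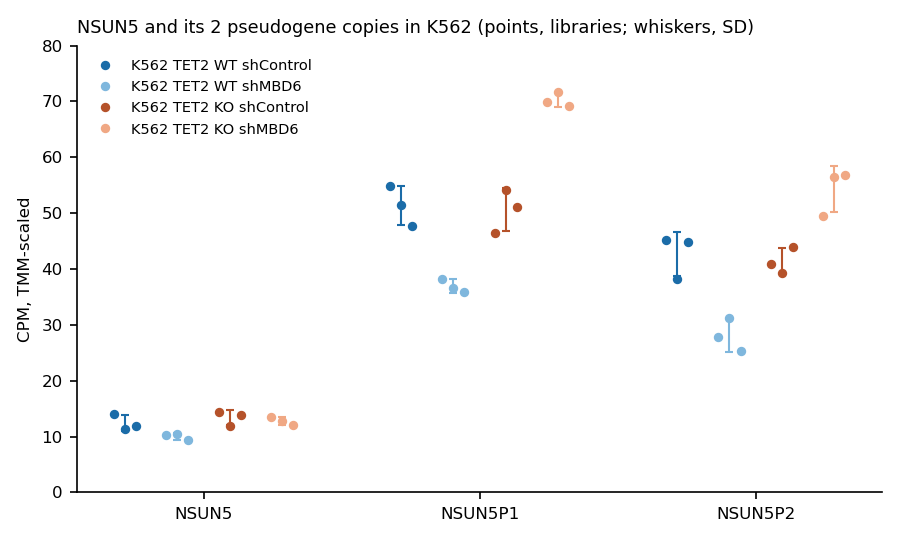
CPM of NSUN5 and of its pseudogene copies NSUN5P1 and NSUN5P2 in the 12 K562 libraries, with SD whiskers. NSUN5 lies between 9.36 and 14.4 CPM, below every value of either copy.

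The promoters of members that changed together in K562 were compared by sequence. RefSeq promoters of 300 bases around the annotated start (GRCh38.p14) matched 9 of the 10 members, all but NSUN2. Shown are ALYREF, YBX1 and NSUN4, which were lower with shMBD6 in TET2 WT, and NSUN7, which was higher. Capitals mark the motifs searched on both strands, overlapping matches included, which were the E-box CACGTG, the CCAAT box, the GC box GGGCGG, the ETS motif CCGGAAG, the TATA box TATAAA and the cAMP response core TGACG.
ALYREF, chr17:81891537-81891836, minus strand: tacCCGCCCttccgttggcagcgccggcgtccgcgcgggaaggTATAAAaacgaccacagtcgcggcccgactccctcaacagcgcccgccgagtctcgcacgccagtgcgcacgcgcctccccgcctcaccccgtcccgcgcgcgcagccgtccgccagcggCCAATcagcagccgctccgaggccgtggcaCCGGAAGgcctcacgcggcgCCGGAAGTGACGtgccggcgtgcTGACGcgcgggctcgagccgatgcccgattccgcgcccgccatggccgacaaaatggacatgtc
YBX1, chr1:42682168-42682467, plus strand: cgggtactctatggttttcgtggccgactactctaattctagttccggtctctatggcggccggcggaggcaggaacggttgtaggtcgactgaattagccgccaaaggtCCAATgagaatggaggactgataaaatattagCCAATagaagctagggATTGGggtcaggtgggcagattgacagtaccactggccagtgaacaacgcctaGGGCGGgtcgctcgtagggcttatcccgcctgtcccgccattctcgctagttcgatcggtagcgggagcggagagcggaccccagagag
NSUN4, chr1:46340557-46340856, plus strand: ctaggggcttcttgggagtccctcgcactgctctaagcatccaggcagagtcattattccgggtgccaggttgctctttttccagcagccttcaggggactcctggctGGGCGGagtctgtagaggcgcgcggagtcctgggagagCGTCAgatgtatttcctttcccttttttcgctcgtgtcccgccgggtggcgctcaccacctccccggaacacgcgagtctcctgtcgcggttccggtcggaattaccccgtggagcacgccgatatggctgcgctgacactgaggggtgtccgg
NSUN7, chr4:40749705-40750004, plus strand: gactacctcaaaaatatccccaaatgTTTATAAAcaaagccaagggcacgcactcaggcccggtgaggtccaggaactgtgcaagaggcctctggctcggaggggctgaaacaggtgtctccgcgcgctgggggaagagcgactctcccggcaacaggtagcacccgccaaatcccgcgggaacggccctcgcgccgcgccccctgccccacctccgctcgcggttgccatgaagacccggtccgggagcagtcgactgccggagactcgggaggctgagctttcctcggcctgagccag

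Of the motifs searched, GGGCGG was found in ALYREF, YBX1, NSUN4 and NSUN5 and in 44.9% of all 34943 promoters. It was not found in NSUN3, NSUN6 or TRDMT1, whose genes were also called lower with shMBD6 in TET2 WT. CCAAT was found 3 times in YBX1, once in ALYREF, NSUN3 and NSUN5 and 2 times in TRDMT1, and in 34.6% of all promoters. CCGGAAG was found in ALYREF, NSUN3, NSUN5 and NSUN6 and in 10.2% of all promoters. TGACG was found in NOP2, NSUN4, NSUN6 and ALYREF and in 24.5%. TATAAA was found in ALYREF and NSUN7 and in 11.6%, and CACGTG in NOP2 alone and in 7.23%. Each of the 9 promoters had more CpG pairs than the median of 14 over all promoters, from 21 in TRDMT1 to 50 in ALYREF. These matches describe letters and not binding.

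Genes of the pathways around the members were mostly called in the same direction as the members in TET2 WT K562 cells. With shMBD6, RNA was lower for 15 of 17 ribosomal RNA modification genes and partners of NOP2 (median -0.50), 12 of 15 export partners of ALYREF (-0.49), 15 of 16 mitochondrial RNA modification genes (-0.50) and 15 of 17 cytosolic transfer RNA modification genes (-0.60), with none higher in any of these lists. Of all genes 24.7% were called lower and 17.7% higher in that comparison, with a median of 0.10. The medians stayed between -0.32 and -0.51 under the 3 other scalings, with 8 to 15 genes of each list called lower and at most 1 higher. TRMT112, an activating partner of several methyltransferases, changed by -0.95 ± 0.32 and NOP56, a box C/D core protein, by -0.79 ± 0.05. NXT1, the export cofactor of NXF1, changed by -1.0 ± 0.27 and the RNA helicase DDX39A by -0.61 ± 0.04. The mitochondrial transfer RNA modifier MTO1 changed by -0.87 ± 0.04, and QTRT1, the catalytic part of the queuine transferase, by -1.03 ± 0.14.

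In TET2 KO the libraries labelled shMBD6 were higher for 12 of 17, 7 of 15, 12 of 16 and 8 of 17 genes of these lists, with 1, 1, 1 and 0 lower, where 15.7% of all genes were called higher and 20.6% lower. The interaction was positive for 15, 12, 15 and 16 genes, with medians of 0.78, 0.78, 0.78 and 0.85 against -0.19 over all genes, of which 23.9% had a positive interaction. Under shControl TET2 KO was lower than TET2 WT for 11, 9, 10 and 10 genes, with 1, 0, 1 and 2 higher, where 22.3% of all genes were called lower and 23.5% higher. QTRT1 (-1.25 ± 0.15) and THOC6 (-0.56 ± 0.14), a THO complex subunit, were examples, and METTL15 (0.40 ± 0.03), a mitochondrial ribosomal RNA methyltransferase, was an exception. Between the genotypes under the shMBD6 label, 15, 10, 15 and 16 genes were higher in TET2 KO and 0, 1, 0 and 0 lower, among them the adenosine deaminase subunit ADAT2 (0.98 ± 0.05), where 30.1% of all genes were called higher and 28.5% lower. In mES cells none of the 4 lists had a gene called higher, and 11 of 17, 12 of 14, 8 of 15 and 11 of 16 genes were called lower, with medians of -0.16 to -0.22, where 25.8% of all genes were called higher and 24.3% lower and their median was 0.14. With total gene counts and with TMM on highly expressed genes these medians were between -0.03 and 0.04, and 0 to 4 genes of each list were called lower and 0 to 3 higher. Npm1, a nucleolar chaperone, changed by -0.40 ± 0.02 and Chtop, a partner of Alyref, by -0.49 ± 0.04, and both stayed lower under these scalings (-0.19 to -0.30).

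Dioxygenases that act on m5C were described in the same way. In mES cells all 4 of Tet1, Tet2, Tet3 and Alkbh1 were called lower with siNsun2, where 24.3% of all genes were. Tet2 was at 439, 442 and 436 CPM in siControl and at 331, 325 and 331 CPM in siNsun2 (-0.42 ± 0.02). With total gene counts or TMM on highly expressed genes Tet2 alone was still called (-0.24 and -0.21). In K562 TET1 was higher in TET2 KO than in TET2 WT by 0.57 ± 0.03 under either hairpin. ALKBH1, which also stands in the mitochondrial list, was lower with shMBD6 in TET2 WT (-0.50 ± 0.08) and higher in TET2 KO (0.28 ± 0.08). In TET2 WT, 2 of the 4 were lower and 0 higher with shMBD6, against 2 lower and 2 higher with total gene counts. Of 11 other proposed readers, 7 were lower and 1 was higher with shMBD6 in TET2 WT. On the main scale 24.7% of all genes were called lower and 17.7% higher in that comparison. The YBX1 relative YBX3 changed by -0.76 ± 0.08 and the splicing factor SRSF2 by -0.66 ± 0.05, while MBD5, a relative of MBD6, changed by 0.63 ± 0.03. In TET2 KO, MBD5 was lower in the libraries labelled shMBD6 (-0.87 ± 0.03), and it was higher in TET2 KO than in TET2 WT under shControl (1.14 ± 0.03). In mES cells 7 of these 11 readers were lower and 1, Lin28b, was higher (0.14 ± 0.03, chosen after its value was seen). Of all genes 24.3% were called lower and 25.8% higher there. Under total gene counts or TMM on highly expressed genes 0 of the 11 readers were lower and 3 were higher. Most of all genes called under these scalings were called higher too, as given above.

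Genes within 5 Mb of each member, and as an alternative within 2 Mb, were used to compare each member with its surroundings. The median of all genes was 0.10 for shMBD6 in TET2 WT and -0.05 for TET2 KO under shControl. It was -0.03 between the genotypes under shMBD6. For shMBD6 in TET2 WT, 59 tested genes within 5 Mb of NSUN2 (chr5:6599239-6633291, minus strand, hg38) had a median change of 0.43, and 27 within 2 Mb one of 0.53, while NSUN2 itself changed by -0.43. Around NSUN7 (chr4:40749925-40811184, plus strand) 67 genes had a median of 0.48 in that comparison, where NSUN7 rose. For TET2 KO under shControl, where NSUN7 rose too, they had a median of -0.23, which turned to 0.12 over the 39 genes within 2 Mb. NSUN7 fell with the shMBD6 label in TET2 KO and between the genotypes under shMBD6. There its neighbours had medians of -0.21 and -0.42 within 5 Mb, and of -0.19 and -0.30 within 2 Mb. The median of all genes was -0.07 in the former. The 26 genes around NSUN3 (chr3:94062980-94131832, plus strand) had a median of -0.39 for TET2 KO under shControl and of -0.75 between the genotypes under shMBD6. The 7 of them within 2 Mb had medians of 0.04 and 0.12, so that the sign for NSUN3 depended on the window. For NSUN5 (chr7:73302516-73308826, minus strand) 98 neighbours had a median of 0.52 in TET2 KO under shControl, and 50 within 2 Mb one of 0.48, where NSUN5 was at 0.11. For shMBD6 in TET2 WT the neighbours of ALYREF (chr17:81887835-81891586, minus strand) and YBX1 (chr1:42682418-42703805, plus strand) had medians of -0.01 and -0.02 within 5 Mb. Within 2 Mb the medians were -0.07 and 0.03. In both windows they lay below the median of all genes, while ALYREF and YBX1 themselves were called lower.

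The tested genes whose centred log2 CPM over the 12 K562 libraries came closest to that of NSUN2 were RBBP6, ATP6V0E1 and UBP1, with root mean square differences of 0.035, 0.037 and 0.040 where NSUN2 itself varied by 0.21. For TRDMT1 they were ASAP1, ENTPD1-AS1 and GPR89B, at 0.044, 0.044 and 0.046 where TRDMT1 varied by 0.17. For NSUN7 they were GLIS1, LUCAT1 and BCO2, at 0.28 to 0.32 where NSUN7 varied by 0.82. The points of these profiles are libraries of 4 groups, so that likeness here means likeness between groups.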

How the data were processed

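Chromatin-associated RNA of 12 K562 and 6 mES libraries was compared, and 1 further mES library with no comparison group was described only. The authors trimmed reads with Trimmomatic 0.39, aligned them with HISAT2 2.2.1 to hg38 or mm10 and counted them per gene with HTSeq 0.12.4 on GENCODE genes, and their methods also name featureCounts for caRNA. The deposited values are whole-number read counts per gene and library, with no normalization. Lines of the counter that name no gene (outside genes, ambiguous, multiple) stayed out of library sizes and tests. No spike-in lines were used, so comparisons are relative to the other genes. The feature counted and the strand option are not given in the sources used here.

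From the counts, genes passing filterByExpr (minimum count 10) were scaled by TMM and tested with the edgeR 4.0.16 quasi-likelihood test (robust, with limma 3.58.1, R 4.3.3), with Benjamini-Hochberg adjustment over all genes tested and calls at 0.05. The K562 model held all 12 libraries, so the 4 groups share 1 estimate of spread, and the mES model held 6. The code was tested on simulated data. Depth was 52158403 to 102070223 counts per library, so among the members counting error is small except for NSUN7. Limits for a count of 0 (3 counts) cover counting error only. No library pair agreed within sampling noise. Alternatives were DESeq2 1.42.0 and its size factors, total gene counts, TMM on genes of mean log2 CPM of at least 5, no filter, a filter of 50 counts in every library of 1 group, a replicate block, models of only the groups compared, and leaving out each library. Gene lists under other scalings were added after seeing the data. The members and lists were chosen with earlier results of these data known. All members are named, and of each list up to 4 called genes per comparison with the largest change were eligible to be named. Members called with an absolute log2 change of at least 0.3 are given library by library. Same-numbered libraries of different groups did not deviate together (correlations of -0.02 to 0.03), so the numbers do not pair libraries.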

Additional observations from a re-analysis of the deposited data

Results flagged for a closer look

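The shMBD6 difference depended on TET2 genotype for 6 of the 9 members tested in K562, by the edgeR interaction term, 5 in the positive direction, where 23.9% of all genes were called, and 1 in the negative, where 25.5% were. The values, as the log2 change in TET2 KO minus that in TET2 WT, were 1.03 for ALYREF, 0.73 for NSUN4, 0.62 for NSUN2, 0.52 for YBX1, 0.34 for NSUN3 and -2.93 for NSUN7. The caRNA of MBD6 itself differed in the same way between the genotypes, with an interaction of 0.75. It was lower with shMBD6 in TET2 WT and was not lower under that label in TET2 KO. The part of MBD6 in the member values was not tested. NSUN7 rests on 30 to 186 reads per library.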

How the results depend on the processing

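Of 805 values of member changes under alternatives, 686 kept their direction and side of the threshold, 61 lost the call, 22 gained one and 36 changed sign. With total gene counts the values that changed sign were 0.034 (Nop2), 0.024 (Nsun5) and 0.032 (Alyref) in mES cells, -0.069 (NSUN5) and -0.14 (NSUN6) for TET2 KO over WT with shControl, 0.0083 (NSUN6) for shMBD6 in TET2 WT, 0.10 (NSUN3), 0.062 (NSUN5) and 0.0086 (NSUN6) for shMBD6 in TET2 KO, -0.14 (NSUN6) between genotypes under shMBD6, and 0.00035 (NSUN6) and 0.0098 (TRDMT1) in the interaction. With TMM on highly expressed genes they were 0.063 (Nop2), 0.052 (Nsun5) and 0.060 (Alyref) in mES cells and, for NSUN6, -0.022 for TET2 KO over WT with shControl, 0.079 for shMBD6 in TET2 WT and -0.21 for TET2 KO over WT with shMBD6. For the last 2 of these comparisons NSUN6 was at 0.021 and -0.11 with DESeq2 size factors, 0.020 and -0.11 with DESeq2, and 0.016 and -0.050 with no filter, and in the last at -0.085 with the stricter filter and -0.062 in the model of only 2 groups. NSUN3 for shMBD6 over shControl within TET2 KO (not called on the main scale) was at 0.021 with no filter and 0.020 in the model of only 2 groups.

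Leaving out 1 library at a time gave -0.065 to 0.00042 for NSUN3 in TET2 KO over WT with shControl, -0.060 to 0.0099 for NSUN3 with shMBD6 in TET2 KO, -0.0065 to 0.044 for NSUN6 between genotypes under shMBD6, and -0.042 to 0.0085 (NSUN6) and -0.035 to 0.016 (TRDMT1) in the interaction. None of these values was called on the main scale. The number of members called in mES cells was 5 in place of 8 with total gene counts and with TMM on highly expressed genes. By gene span NSUN2 was in place 2 in each K562 group and in place 5 in both mES groups, in place of 3. With the replicate number as a block, 1 member was higher and 6 lower in mES cells (Alyref, -0.15, was not called), and YBX1 was called for shMBD6 over shControl within TET2 KO (0.08). No other member call changed with the block. Member calls ranged over the left-out libraries from 6 to 8 in mES cells, 4 to 5 for TET2 KO over WT with shControl, 7 to 8 for shMBD6 in TET2 WT, 4 to 7 for shMBD6 in TET2 KO, and were 8 for TET2 KO over WT with shMBD6 and 6 for the interaction. Calls over all genes, in the same order, were 11769 to 13085, 10636 to 10982 and 9608 to 10030. They were 8279 to 9179, 14164 to 15454 and 11924 to 13178 in the last comparisons. With all libraries 27603 genes were tested in mES cells and 26023 in K562. The cause of these changes was not tested. Among the members, depth limits NSUN7 only, at 30 to 186 reads per library.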

Other observations

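A single mES library labelled Pscp1 WT entered no comparison. Its levels, as counts scaled to the total of gene counts, were above the siControl range for Nsun2 at 220 CPM (119 to 125 in siControl), Nop2 at 119 (72.9 to 77.0), Ybx1 at 352 (221 to 223), Alyref at 36.9 (21.9 to 22.4), Nsun3 at 24.5 (15.7 to 16.8) and Nsun5 at 15.0 (11.3 to 12.6). They were within that range for Nsun4 at 23.3 (20.9 to 23.7) and Nsun6 at 48.6 (46.0 to 50.9). They were below it for Trdmt1 at 8.59 (9.53 to 11.2) and Nsun7 at 0.196 (1.41 to 1.59), the latter from 18 reads. Reads outside genes made up 10.7% of its records, against 19.6% to 20.2% in siControl. With 1 library there is no replicate check.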
